A study of Mus musculus with 9 samples.

Results

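The heat shock and DnaJ genes read by the array were 66 of 19593 genes with a symbol, covered by 79 of 35552 probe sets. They were chosen by symbol alone, as every probe set whose deposited gene symbol begins with Hspa, Hspb, Hsph, Hsp90, Hspd, Hspe, Dnaja, Dnajb, Dnajc or Hsf followed by a digit or letter. Expression was measured on 9 arrays from CD80+ medullary thymic epithelial cells, the mature stromal cells that show tissue antigens to developing T cells. The arrays fall into 3 groups of 3, namely C2TA knockdown (replicates 4 to 6), C2TA knockout (replicates 7 to 9) and C2TA wild type (replicates 1 to 3). All mice were female Balb/c, 4 to 6 weeks old, and the study asked what these cells contribute themselves to CD4 T cell tolerance. C2TA, encoded by Ciita, is the transactivator that switches on MHC class II genes. The samples of a group are labelled as biological replicates, the number of mice behind each is not stated, and p-values therefore measure only the spread between these samples. The construct behind the knockdown, the cells in which it acts and the part of the gene deleted in the knockout are not named in the labels.

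Heat shock proteins hold unfolded proteins and help them fold. The Hsp70 proteins (Hspa genes) bind and release clients in an ATP-driven cycle, J-proteins (Dnaja, Dnajb and Dnajc genes) deliver clients and trigger ATP hydrolysis, the Hsp110 relatives recharge the cycle, Hsp90 proteins act late in folding, small heat shock proteins (Hspb genes) hold clients without ATP, and Hspd1 with Hspe1 forms the mitochondrial folding cage. Some members are made in all conditions, whereas others are induced when heat shock factor 1 binds heat shock elements, which are inverted repeats of GAA, or when the unfolded protein response acts on genes of the endoplasmic reticulum (ER).

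The members were divided by known regulation and site into 12 heat-inducible genes, 6 ER stress-inducible genes, 25 constitutive genes (15 cytosolic and nuclear, 5 of the ER and 5 mitochondrial), 5 heat shock factor genes, 13 genes known mainly from muscle, testis or brain, here called tissue-restricted, and 5 in no class. A gene was represented by its probe set with the highest mean. Of the 66 genes, 47 (71.2%) lay above the median gene mean of 4.52 on the log2 scale. These were all 12 heat-inducible, all 6 ER stress-inducible, 14 of 15 constitutive cytosolic and nuclear, 4 of 5 constitutive ER, 4 of 5 constitutive mitochondrial, 2 of 5 heat shock factor, 3 of 13 tissue-restricted and 2 of 5 unclassed genes. Hsph1, the inducible Hsp110 protein, is filed under an older symbol that the rule does not take, and its values are given beside the heat-inducible genes.

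Promoter stretches are shown for some genes of both inducible classes, because both classes are known for regulatory elements there, and for the constitutive gene Dnajb6. Only stretches that hold a match are shown. RefSeq promoter sequence (GRCm38.p6) was matched for 53 of the 66 members, and the 250 bases before each start were searched on both strands. The letters searched were GAANNTTC or TTCNNGAA for a heat shock element of 2 units, either of these followed after 2 free bases by a further GAA or TTC in alternation for one of 3 units, which holds 2 overlapping matches of the shorter form, and CCAAT, 9 free bases and CCACG for the ER stress response element. In the stretches below, 5′ to 3′ on the gene's own strand, capitals mark matches on either strand to the 2-unit heat shock element or to the ER stress response element.
Hspa1b: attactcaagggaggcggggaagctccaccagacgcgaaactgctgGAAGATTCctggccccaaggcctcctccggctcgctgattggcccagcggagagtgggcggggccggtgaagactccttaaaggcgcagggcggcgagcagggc
Hspb1: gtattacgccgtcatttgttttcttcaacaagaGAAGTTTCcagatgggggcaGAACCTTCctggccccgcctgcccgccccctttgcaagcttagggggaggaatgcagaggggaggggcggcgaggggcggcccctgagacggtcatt
Dnaja4: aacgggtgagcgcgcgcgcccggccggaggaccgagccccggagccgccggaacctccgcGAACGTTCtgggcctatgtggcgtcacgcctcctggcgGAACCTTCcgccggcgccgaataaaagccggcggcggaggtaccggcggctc
Hspe1: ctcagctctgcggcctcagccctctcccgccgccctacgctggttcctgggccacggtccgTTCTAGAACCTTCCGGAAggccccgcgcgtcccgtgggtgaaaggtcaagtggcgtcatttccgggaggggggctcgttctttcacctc
Dnajb6: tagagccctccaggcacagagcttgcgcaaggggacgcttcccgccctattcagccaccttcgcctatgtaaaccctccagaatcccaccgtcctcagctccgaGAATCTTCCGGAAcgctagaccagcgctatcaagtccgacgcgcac
Hspa5: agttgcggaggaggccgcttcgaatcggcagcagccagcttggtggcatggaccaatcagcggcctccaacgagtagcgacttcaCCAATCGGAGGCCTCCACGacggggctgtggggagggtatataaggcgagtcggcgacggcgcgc
Hsp90b1: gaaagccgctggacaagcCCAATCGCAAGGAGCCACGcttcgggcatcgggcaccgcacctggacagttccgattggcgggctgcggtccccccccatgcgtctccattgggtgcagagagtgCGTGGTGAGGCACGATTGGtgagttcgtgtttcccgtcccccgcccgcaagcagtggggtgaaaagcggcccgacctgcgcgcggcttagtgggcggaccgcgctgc

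These stretches lie before the gene starts of Hspa1b at chr17:34959239-34959388 (minus strand), Hspb1 at chr5:135887769-135887918 (plus), Dnaja4 at chr9:54699409-54699558 (plus), Hspe1 at chr1:55087998-55088147 (plus), Dnajb6 at chr5:29735748-29735897 (plus), Hspa5 at chr2:34771940-34772089 (plus) and Hsp90b1 at chr10:86705445-86705674 (minus). A 2-unit heat shock element was found before 8 of 11 heat-inducible genes with a promoter entry, namely Dnaja1, Dnaja4, Dnajb4, Hspa1a, Hspa1b, Hspb1, Hspd1 and Hspe1. The other heat-inducible genes, Dnajb1, Hspb8, Hsp90aa1 and Hspa4l, had no match or no promoter entry. The 2-unit element was found before 1 of 6 ER stress-inducible genes (Dnajc10), 1 of 18 constitutive genes (Dnajb6), 2 of 11 tissue-restricted genes (Hspb3 and Hspb6) and 1 of 3 heat shock factor genes (Hsf5), and before 14.55% of all 27025 genes with a promoter entry. The 3-unit form, present before 0.5143% of these genes, was found before Hspd1, Hspe1 and Dnajb6. Hspd1 and Hspe1 lie head to head, and their matches are the same stretch, chr1:55088059-55088076, which the Hspe1 line above shows in capitals. The ER stress response element, present before 0.1295% of these genes, was found before Hspa5, Hsp90b1 (2 matches) and Dnajc3. It was not found before the ER stress-inducible genes Dnajb9, Dnajb11 and Dnajc10. A match is a description of the letters and not of binding. The windows of Hspa1a and Hspa1b have the same base at 247 of 250 positions, and as these genes are near-identical copies their probe sets may also share signal.

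Ciita, the targeted gene, had log2 values of 5.44, 4.94 and 5.50 in the knockdown, 5.96, 6.16 and 6.11 in the knockout and 6.37, 6.55 and 6.28 in wild type. All knockdown and knockout arrays lay below all wild type arrays, and neither difference passed in limma (-1.11 with adjusted p 0.0550 for knockdown against wild type, and -0.33 for knockout against wild type with adjusted p 0.9997). Over the alternatives the knockdown difference had limma adjusted p values of 0.00638 to 0.304. Whether the Ciita probe set lies in the deleted part is not known, so it does not check the knockout label. H2-Aa, an MHC class II gene that C2TA drives, was lower in the knockout than in wild type by a log2 change of -4.50 (limma adjusted p 2.3e-05), had -1.44 (limma adjusted p 0.0550) for knockdown against wild type and was higher in the knockdown than in the knockout by 3.05 (limma adjusted p 0.00055). Aire, the regulator of tissue antigens in these cells and another of the medullary markers, was higher in the knockdown than in wild type by 1.54 (limma adjusted p 0.00362) and than in the knockout by 1.62 (limma adjusted p 0.00183). All 14 measured medullary epithelial markers lay above the median gene mean. As a list they did not share a direction. For knockdown against wild type 6 had a higher mean (52.4% of all genes) and 8 a lower one, with a median change of -0.05. For knockdown against knockout 8 were higher (50.1% of all genes) and 6 lower, with a median of 0.05. Wild type 1 and knockout 7 stood apart, with interquartile ranges over genes of 2.20 and 2.37, whereas the other 7 arrays lay between 2.53 and 2.80. Results that rest on these arrays are given with and without them. Throughout, values per array follow the order of the replicate numbers within each group.

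No heat shock or DnaJ gene passed the threshold (limma, Benjamini-Hochberg adjusted p under 0.05) in any of the 3 comparisons, and none passed in any of 18 alternative settings. Over all genes, 0.0664% passed for knockdown against wild type, 0.0459% for knockout against wild type and 0.0408% for knockdown against knockout. The smallest adjusted p of a member was 0.671, for Dnajb1 between knockdown and knockout. Over all settings it was 0.0884, for Hspa2 in the same comparison without wild type 1 and knockout 7. In that fit the remaining wild type values of Hspa2 were equal and added nothing to its estimated spread. At an unadjusted p under 0.05, 1 member was higher and 0 lower in knockdown against wild type (2.86% and 2.37% of all genes), 0 were higher and 0 lower in knockout against wild type (1.75% and 1.59%), and 5 were higher and 0 lower in knockdown against knockout (2.82% and 2.22%). With 3 arrays in each group, the smallest p of an exact permutation test is 0.1. The values that follow are therefore descriptions of where the members lay. RNA came from bulk samples, so fewer cells of a type and less RNA per cell cannot be told apart.

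Among the heat-inducible genes, Dnajb1, the main inducible J-protein partner of cytosolic Hsp70, stood furthest apart between knockdown and knockout. It had log2 values of 8.24, 8.24 and 7.77 in the knockdown, 7.37, 7.53 and 7.59 in the knockout and 8.06, 8.05 and 7.45 in wild type. Every knockdown array lay above every knockout array, and wild type overlapped both groups. The knockdown averaged 8.08 ± 0.27, the knockout 7.50 ± 0.11 and wild type 7.85 ± 0.35 (SD, n = 3 each). The log2 change for knockdown against knockout was 0.59 (SE 0.19, 95% interval 0.16 to 1.02), a 1.50-fold difference with an unadjusted p of 0.013 and a limma adjusted p of 0.671.

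**Figure D1:**
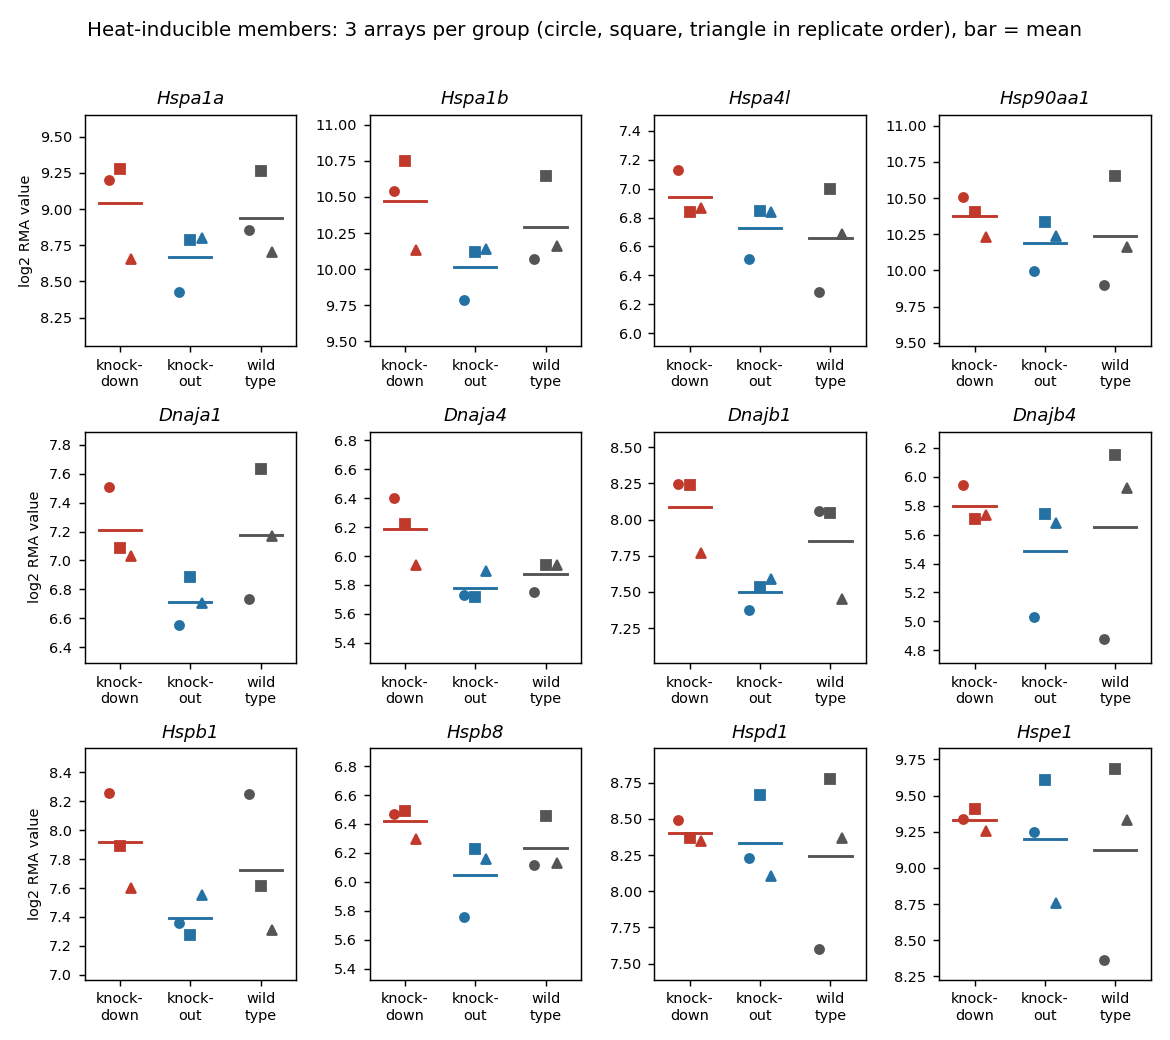
Log2 values of the 12 heat-inducible genes on each of the 9 arrays, 1 panel per gene, with knockdown, knockout and wild type from left to right and a bar at each group mean. For Dnajb1, Dnaja1, Dnaja4, Hspb1 and Hspb8 the 3 knockdown arrays lie above the 3 knockout arrays, while wild type overlaps both groups for most genes.

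The other heat-inducible J-proteins of the cytosolic Hsp70 cycle, Dnaja4, Dnaja1 and Dnajb4, had a like order of means, without passing the test. Dnaja4 had 6.40, 6.23 and 5.94 in the knockdown, 5.73, 5.72 and 5.90 in the knockout and 5.75, 5.94 and 5.94 in wild type. The lowest knockdown array lay above the highest knockout array and level with the higher wild type arrays, and the change was 0.41 (SE 0.14, limma adjusted p 0.684) for knockdown against knockout and 0.31 (SE 0.14, limma adjusted p 0.929) for knockdown against wild type. Dnaja1, a J-protein of the first type, had 7.51, 7.08 and 7.03 in the knockdown, 6.55, 6.89 and 6.70 in the knockout and 6.73, 7.63 and 7.17 in wild type. Its knockdown arrays lay above its knockout arrays, with a change of 0.50 (SE 0.22, limma adjusted p 0.996), while wild type 1 lay within the knockout range and wild type 2 above every other array. Dnajb4, whose product also works with Hsp70, had 5.94, 5.71 and 5.73 in the knockdown, 5.03, 5.74 and 5.68 in the knockout and 4.88, 6.15 and 5.92 in wild type. Its low values were those of knockout 7 and wild type 1, and the other arrays overlapped.

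The inducible Hsp70 genes Hspa1a and Hspa1b had a like order of arrays. Hspa1b had 10.54, 10.75 and 10.13 in the knockdown, 9.78, 10.12 and 10.14 in the knockout and 10.07, 10.65 and 10.16 in wild type. Hspa1a had 9.20, 9.28 and 8.65 in the knockdown, 8.42, 8.79 and 8.80 in the knockout and 8.85, 9.26 and 8.71 in wild type. For both genes knockdown 6 lay with the knockout arrays, and the changes for knockdown against knockout were 0.46 (SE 0.20, limma adjusted p 0.965) for Hspa1b and 0.37 for Hspa1a. Hspa4l, an inducible exchange factor of the Hsp110 family, had 7.13, 6.84 and 6.87 in the knockdown, 6.51, 6.84 and 6.84 in the knockout and 6.29, 6.998 and 6.68 in wild type, so that 2 knockout arrays equalled 1 knockdown array to 2 decimals. Hsph1 had 8.27, 7.99 and 7.69 in the knockdown, 7.48, 7.64 and 7.39 in the knockout and 7.51, 8.15 and 7.48 in wild type. Its knockdown arrays lay above its knockout arrays, with a change of 0.48 (SE 0.20, limma adjusted p 0.935).

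The heat-inducible small heat shock proteins, Hspb1 and Hspb8, showed the same order of means. Hspb1, a holdase that also protects the cytoskeleton, had 8.26, 7.89 and 7.60 in the knockdown, 7.36, 7.27 and 7.55 in the knockout and 8.25, 7.61 and 7.31 in wild type. Every knockdown array lay above every knockout array, whereas wild type ran across nearly the whole range, and the change for knockdown against knockout was 0.52 (SE 0.24, unadjusted p 0.056). Hspb8, which works with the cochaperone Bag3 in clearing misfolded proteins, had 6.47, 6.49 and 6.30 in the knockdown, 5.75, 6.23 and 6.16 in the knockout and 6.12, 6.45 and 6.13 in wild type. Its change for knockdown against knockout was 0.37 (SE 0.15, limma adjusted p 0.899).

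In the other heat-inducible genes the groups overlapped. Hsp90aa1, the inducible cytosolic Hsp90, had 10.51, 10.40 and 10.23 in the knockdown, 9.998, 10.34 and 10.24 in the knockout and 9.90, 10.65 and 10.16 in wild type. Its widest spread was again in wild type. Hspd1 had 8.49, 8.37 and 8.35 in the knockdown, 8.23, 8.66 and 8.10 in the knockout and 7.60, 8.78 and 8.37 in wild type. Hspe1 had 9.34, 9.40 and 9.26 in the knockdown, 9.25, 9.61 and 8.75 in the knockout and 8.37, 9.69 and 9.33 in wild type. Both were lowest on wild type 1 and highest on wild type 2, and their knockdown against knockout changes were 0.07 for Hspd1 and 0.13 for Hspe1.

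As a class, 12 of 12 heat-inducible genes had a higher mean in the knockdown than in the knockout, against 50.1% of all genes, with a median log2 change of 0.37 against 0.0005 over all genes. For 5 of 12 (Dnaja1, Dnaja4, Dnajb1, Hspb1 and Hspb8) the 3 knockdown arrays lay above the 3 knockout arrays, and for 0 of 12 below, against 5.38% and 4.22% of all genes. Since the genes of a class vary together from array to array, these counts are not independent observations. The count without overlap was 8 without knockdown 6 (8.45% of all genes), 8 without knockout 8 (10.1%) and 5 without knockout 7 (11.2%). The count with a higher mean was 10 without knockout 9 and 12 without any other single array. The median was 0.24 without knockout 7. Of the 5 members with an unadjusted p under 0.05, 4 were heat-inducible (Dnajb1, Dnaja4, Hspb8 and Hspa1b) and the fifth was Hspa2. That count of 5 depended on single arrays, and the share of all genes in either direction is in brackets. It was 0 without knockdown 4 (3.51%), 2 without knockdown 5 (4.18%) and 8 without wild type 1 (8.18%). It was 3 without knockout 7 (5.88%), without knockout 8 (4.01%) or without knockout 9 (4.24%).

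**Figure D2:**
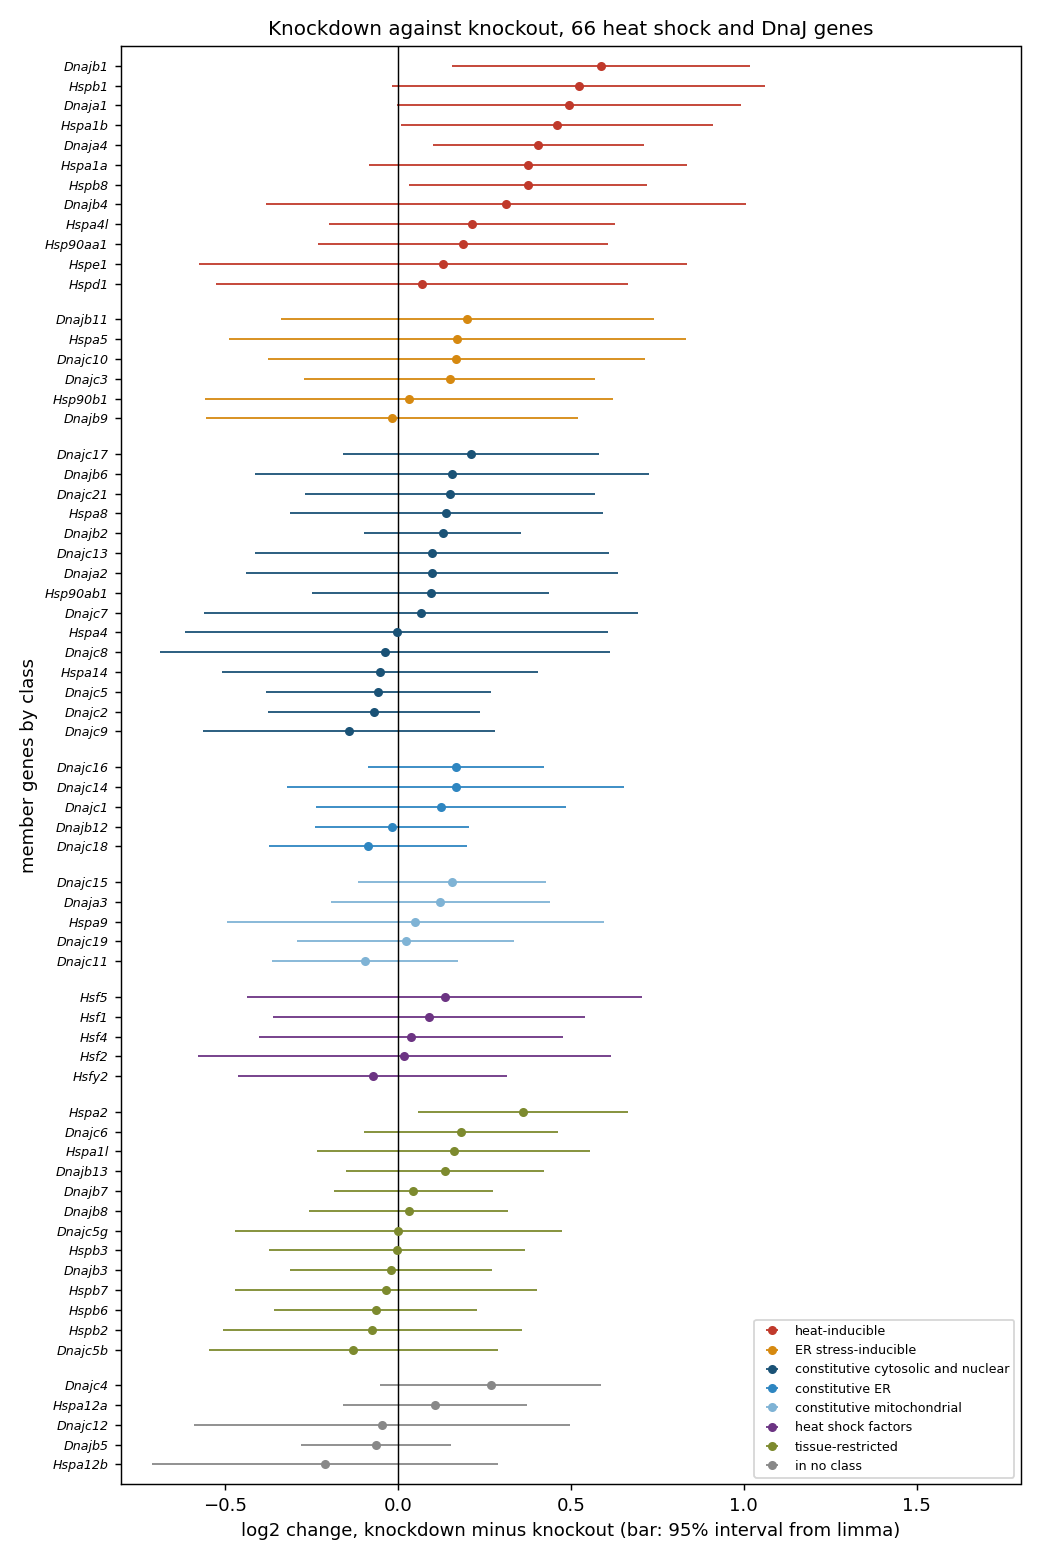
Log2 change, knockdown minus knockout, of all 66 genes with its 95% interval from limma, grouped by class and ordered by size within a class. The 12 heat-inducible genes at the top all lie right of 0, from 0.07 (Hspd1) to 0.59 (Dnajb1), while the genes of the other classes lie on both sides.

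Against wild type the counts and medians of the heat-inducible genes depended on single arrays. For knockdown against wild type 12 of 12 had a higher mean (52.4% of all genes) with a median change of 0.18, and without wild type 1 the count was 7 of 12 and the median 0.07. For knockout against wild type 3 of 12 had a higher mean (51.9% of all genes) and the median change was -0.18, which became 0 of 12 and -0.25 once wild type 1 was left out. Leaving out wild type 2 instead gave a median of 0.34 for knockdown against wild type and -0.07 for knockout against wild type, and leaving out knockout 7 gave 5 of 12 and -0.06 for knockout against wild type. With all arrays, in 0 of 12 heat-inducible genes did the 3 knockdown arrays all lie above (4.8% of all genes) or all below (3.46%) the 3 wild type arrays, and the same held for the knockout arrays (2.54% above and 2.29% below among all genes). The knockdown arrays lay above the wild type arrays in 3 of 12 without wild type 2 (9.73% of all genes) and in 3 of 12 without knockdown 6 (7.64%). The knockout arrays lay below the wild type arrays in 4 of 12 without wild type 1 (10.1% of all genes) and in 3 of 12 without wild type 3 (4.4%). The nearest to the threshold in knockout against wild type were Dnaja1 (-0.46, SE 0.22) and Dnajb1 (-0.36, SE 0.19), both with a limma adjusted p of 0.9997.

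All 6 ER stress-inducible genes had their highest value on wild type 2, 4 had their lowest on wild type 1 and the other 2 on knockout 7. The shares of all genes highest or lowest on these arrays were not counted, so these counts are not a trait of the class. Hspa5, the ER Hsp70 known as BiP, had 9.90, 9.88 and 9.76 in the knockdown, 9.45, 9.83 and 9.74 in the knockout and 9.09, 10.45 and 10.20 in wild type. The wild type arrays enclosed all 6 others, and the group means were 9.84 ± 0.07 in the knockdown, 9.67 ± 0.20 in the knockout and 9.91 ± 0.72 in wild type (SD, n = 3 each). Hsp90b1, the Hsp90 of the ER, had 10.35, 10.19 and 10.24 in the knockdown, 10.07, 10.38 and 10.23 in the knockout and 9.83, 11.08 and 10.68 in wild type, the same arrangement as Hspa5.

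The ER J-proteins of this class also had wild type 2 as their highest array. Dnajb9, which helps BiP hold the stress sensor Ern1 in check, had 7.60, 7.41 and 7.28 in the knockdown, 7.07, 7.55 and 7.72 in the knockout and 7.37, 8.27 and 7.65 in wild type, a change of -0.33 (SE 0.24, limma adjusted p 0.983) for knockdown against wild type. Dnajb11, a J-protein that binds clients for BiP, had 6.94, 6.97 and 6.99 in the knockdown, 6.49, 6.97 and 6.83 in the knockout and 6.31, 7.31 and 7.19 in wild type. In both genes the knockout had a low array, knockout 7. Dnajc3, an ER J-protein also known as an inhibitor of the kinase Eif2ak3, had 7.48, 7.23 and 7.45 in the knockdown, 7.06, 7.37 and 7.28 in the knockout and 7.12, 7.90 and 7.61 in wild type. Dnajc10, a J-protein that reduces disulfide bonds, had 7.61, 7.53 and 7.72 in the knockdown, 7.18, 7.61 and 7.56 in the knockout and 6.91, 7.93 and 7.78 in wild type. Wild type 2 and wild type 3 lay above all knockdown and knockout arrays in both of these genes.

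**Figure D3:**
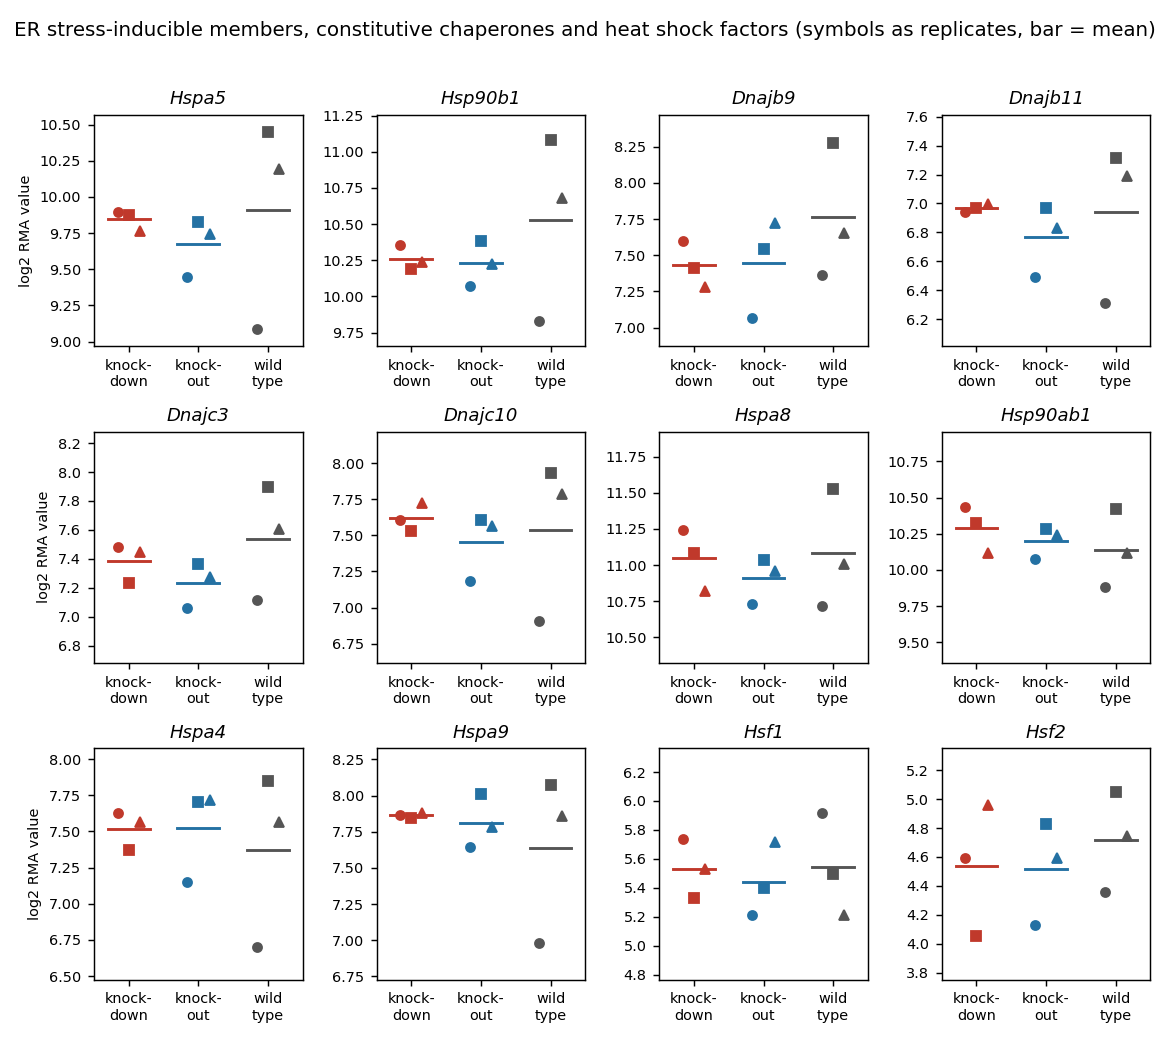
Log2 values of the 6 ER stress-inducible genes and of Hspa8, Hsp90ab1, Hspa4, Hspa9, Hsf1 and Hsf2 on each array, with knockdown, knockout and wild type from left to right and a bar at each group mean. Circle, square and triangle follow the replicate order, and in the 6 ER stress-inducible genes the wild type arrays are spread widest, as for Hspa5 with 9.09 on wild type 1 and 10.45 on wild type 2.

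With all arrays, the median change of the ER stress-inducible class was -0.11 for knockdown against wild type, -0.27 for knockout against wild type and 0.16 for knockdown against knockout, and none of the 6 genes separated the groups in any comparison. The medians against wild type depended on single wild type arrays. Without wild type 1 all 6 genes had their 3 knockdown arrays below both remaining wild type arrays (13.2% of all genes did), with a median of -0.42, whereas without wild type 2 the median was 0.11, and without wild type 3 it was -0.02. With wild type 1 left out, 5 of 6 genes had their 3 knockout arrays below both remaining wild type arrays (10.1% of all genes did), with a median of -0.52, and without wild type 2 the median was -0.0053. Without wild type 1 and knockout 7 together, 6 of 6 were lower in the knockdown than in wild type at an unadjusted p under 0.05 (7.37% of all genes) and 5 of 6 in the knockout (4.02% of all genes). After adjustment in limma 0 of 6 passed in these comparisons, against 0.26% of all genes for knockdown against wild type and 0.0561% for knockout against wild type, and the smallest adjusted p was 0.128 in knockdown against wild type. For knockdown against knockout the median was 0.05 without knockout 7.

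The median standard deviation within a group summarises this spread. For the ER stress-inducible class it was 0.09 in the knockdown, 0.22 in the knockout and 0.55 in wild type, and for the heat-inducible class 0.20, 0.20 and 0.37 in the same order of groups. All genes had 0.11 in the knockdown, 0.16 in the knockout and 0.21 in wild type. The class scores per array, which are the median over genes of the log2 value minus its mean over 9 arrays, gave the same picture. The heat-inducible score was 0.31, 0.20 and -0.0067 in the knockdown, -0.38, -0.05 and -0.10 in the knockout and -0.25, 0.38 and -0.10 in wild type. The ER stress-inducible score was 0.06, -0.07 and 0.0060 in the knockdown, -0.36, 0.03 and -0.06 in the knockout and -0.55, 0.57 and 0.27 in wild type. Knockout 7 and wild type 1, the arrays with the narrowest interquartile range, had the lowest scores for both classes. The part of that range in these differences was not tested beyond leaving the arrays out and fitting it as a covariate.

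**Figure D4:**
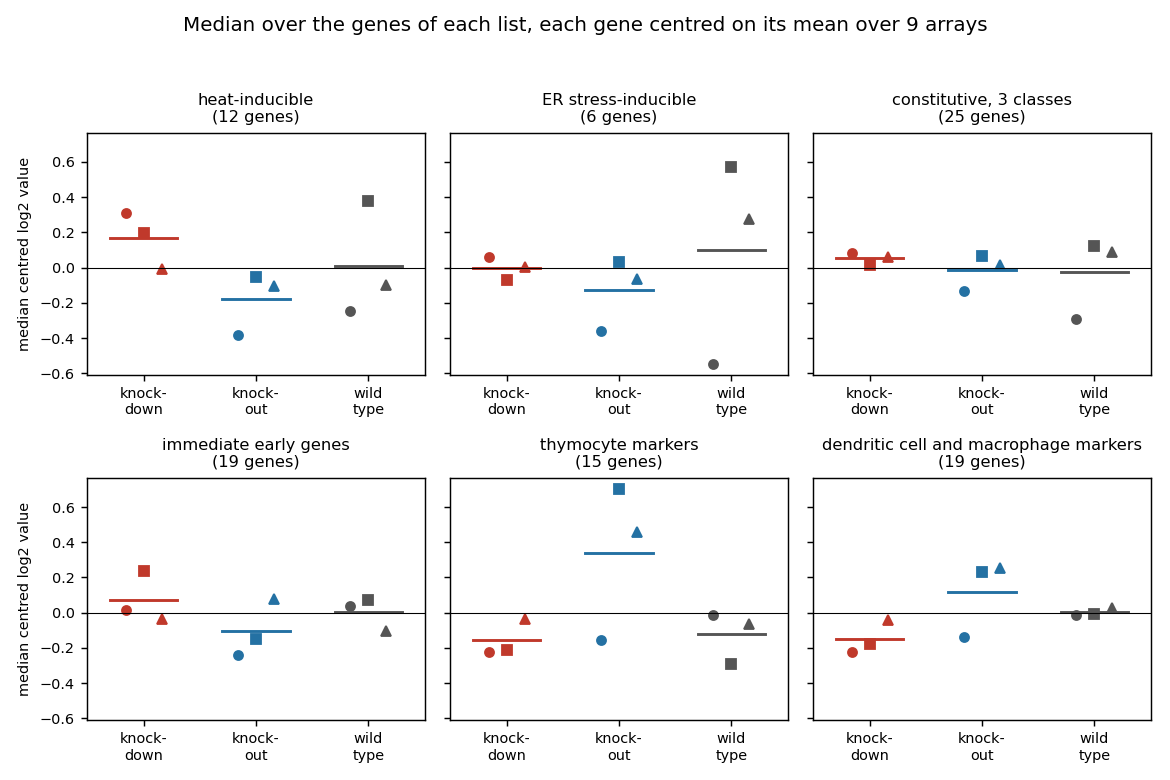
Class scores per array (median over the genes of a list of the log2 value centred on its mean over 9 arrays) for the inducible and constitutive members and for the immediate early, thymocyte and dendritic cell and macrophage lists, with knockdown, knockout and wild type from left to right. The ER stress-inducible score runs from -0.55 on wild type 1 to 0.57 on wild type 2, while the knockdown arrays lie between -0.07 and 0.06.

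The classical constitutive chaperones overlapped between groups. Hspa8, the housekeeping cytosolic Hsp70, had 11.24, 11.09 and 10.82 in the knockdown, 10.73, 11.03 and 10.96 in the knockout and 10.72, 11.53 and 11.01 in wild type. Hsp90ab1, the constitutive cytosolic Hsp90, had 10.43, 10.33 and 10.12 in the knockdown, 10.07, 10.28 and 10.24 in the knockout and 9.88, 10.42 and 10.12 in wild type. In both genes the groups overlapped and wild type 1 was the lowest array. Hspa4, a constitutive exchange factor of the Hsp110 family, had 7.63, 7.37 and 7.56 in the knockdown, 7.15, 7.71 and 7.71 in the knockout and 6.70, 7.85 and 7.56 in wild type. Hspa9, the mitochondrial Hsp70, had 7.87, 7.84 and 7.88 in the knockdown, 7.64, 8.01 and 7.79 in the knockout and 6.98, 8.07 and 7.86 in wild type. Wild type 1 lay below every other array in these genes too.

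The 25 constitutive members, which include J-proteins of many sites, together had median changes of 0.07 for knockdown against wild type, 0.0093 for knockout against wild type and 0.09 for knockdown against knockout, and 0 of 25 separated any pair of groups. These medians changed sign or size with single arrays: without wild type 1 they were -0.07 for knockdown against wild type and -0.14 for knockout against wild type, and without knockout 7 the knockdown against knockout median was -0.01. Of the 25 genes, 14 were lowest on wild type 1, and the share of all genes lowest there was not counted. Dnajc8, a splicing-associated J-protein, had the largest range of any member, 1.39, with 5.56, 5.40 and 5.95 in the knockdown, 5.43, 6.12 and 5.47 in the knockout and 4.73, 5.69 and 5.72 in wild type. Dnajc7, which carries both a J domain and TPR repeats that bind Hsp70 and Hsp90, had 7.15, 7.14 and 7.23 in the knockdown, 7.03, 7.15 and 7.14 in the knockout and 6.03, 7.17 and 7.33 in wild type. Apart from wild type 1 its arrays lay between 7.03 and 7.33. Dnajc9, a J-protein that handles histones, had 5.41, 5.44 and 5.45 in the knockdown, 5.57, 5.71 and 5.44 in the knockout and 4.74, 5.50 and 5.45 in wild type, a change of 0.35 (SE 0.19) for knockout against wild type. Its low array was again wild type 1. Dnajc13, an endosomal J-protein, had 6.70, 6.35 and 6.69 in the knockdown, 6.06, 6.69 and 6.69 in the knockout and 6.42, 7.18 and 6.83 in wild type. Its high value was that of wild type 2 and its low value that of knockout 7.

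**Figure D5:**
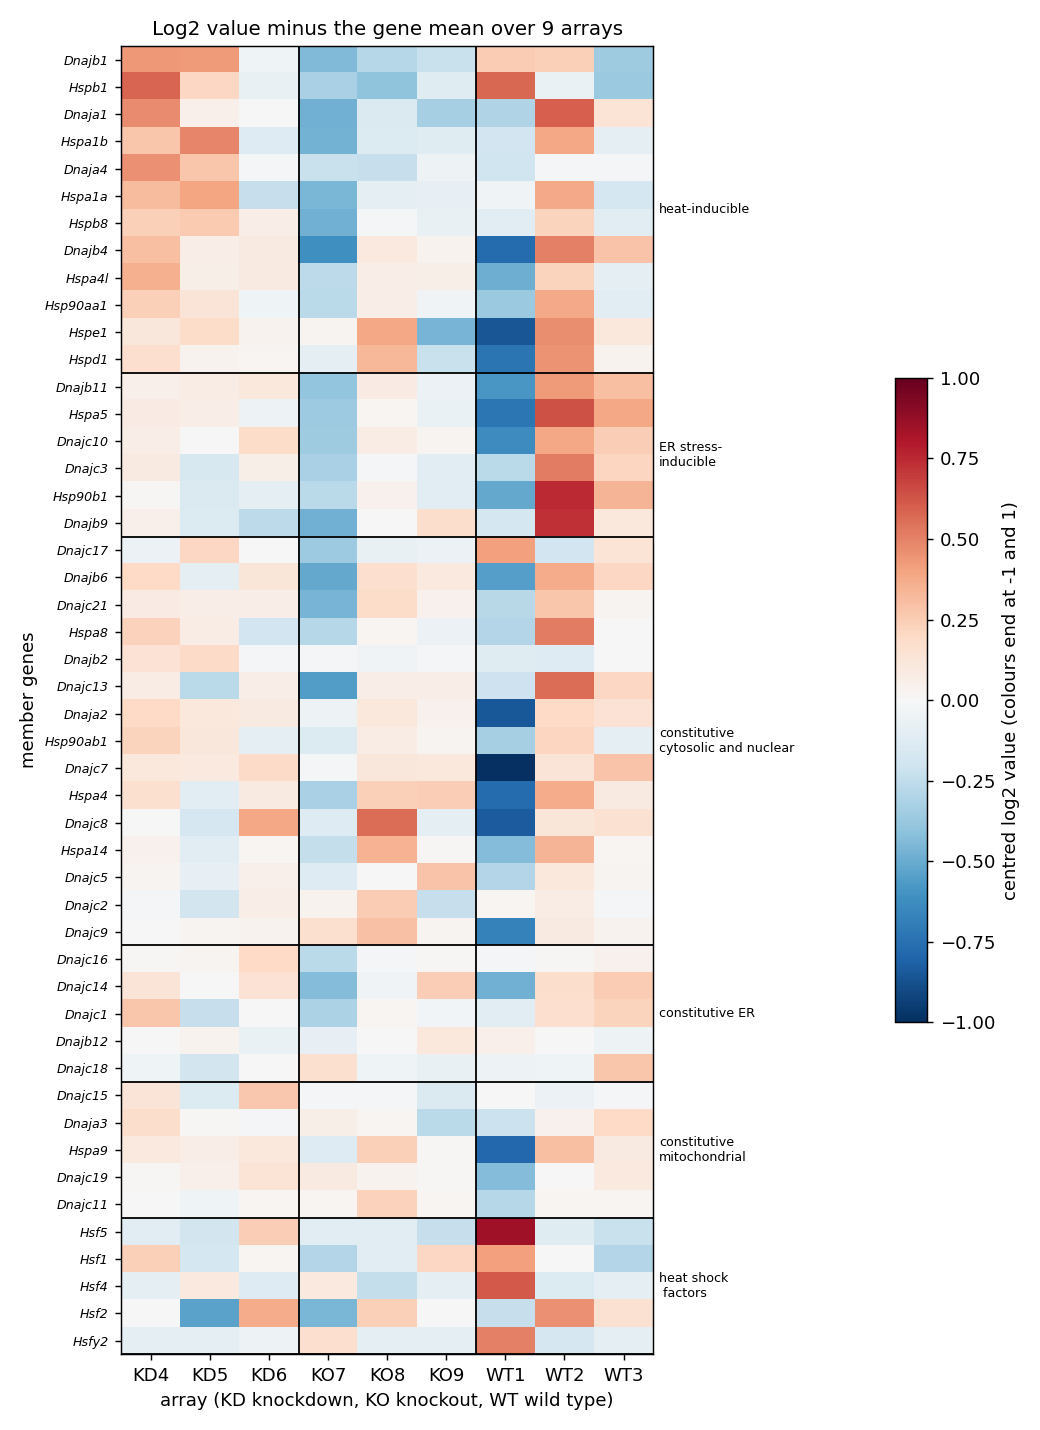
Map of the log2 value minus the gene mean over 9 arrays for the inducible, constitutive and heat shock factor genes (rows) on the 9 arrays (columns, knockdown, knockout and wild type from left to right), with colours ending at -1 and 1. The column of wild type 1 is blue for most genes and red for 4 of 5 heat shock factor genes, and wild type 2 is red for all 6 ER stress-inducible genes.

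The heat shock factors bind heat shock elements, and 2 of 5 lay above the median gene mean. Hsf1, the main stress-activated factor, which is controlled largely at the protein level, had 5.74, 5.33 and 5.53 in the knockdown, 5.21, 5.40 and 5.71 in the knockout and 5.92, 5.50 and 5.21 in wild type. Hsf2, a relative active in development, had 4.59, 4.05 and 4.96 in the knockdown, 4.13, 4.83 and 4.59 in the knockout and 4.36, 5.05 and 4.74 in wild type. The groups overlapped in both genes. Hsf1, Hsf4, Hsf5 and Hsfy2 were highest on wild type 1, opposite to the constitutive chaperones. On that array Hsf4 had 3.97, Hsf5 3.51 and Hsfy2 2.39, and the means of these dim genes over all arrays were 3.37, 2.66 and 1.89. Of the 13 tissue-restricted genes, 5 were also highest on wild type 1, the array with the narrowest interquartile range. The share of all genes highest on that array was not counted. The class medians were -0.17 for knockdown against wild type, -0.20 for knockout against wild type and 0.04 for knockdown against knockout. With all arrays 0 of 5 had a higher mean in the knockdown or the knockout than in wild type, and without wild type 1 the count was 4 of 5 in both comparisons. Without wild type 1 and knockout 7 the medians were 0.07 for knockdown against wild type, -0.0029 for knockout against wild type and 0.01 for knockdown against knockout.

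Of the 13 tissue-restricted genes, 3 lay above the median gene mean, among them Dnajc6, an auxilin known from neurons that uncoats clathrin vesicles with Hspa8. It had 7.05, 6.92 and 7.04 in the knockdown, 6.69, 6.82 and 6.96 in the knockout and 6.82, 7.08 and 6.74 in wild type. Hspa2, an Hsp70 known for its role in male germ cells, had 4.95, 4.85 and 4.71 in the knockdown, 4.75, 4.36 and 4.30 in the knockout and 4.71, 4.71 and 4.71 in wild type. Its wild type values were equal, which median polish can produce, and its groups overlapped. The Hspa2 change for knockdown against knockout was 0.36 (SE 0.14, limma adjusted p 0.794), and 0.50 without wild type 1 and knockout 7 (limma adjusted p 0.0884, in a range of 0.0884 to 1.0 over the alternatives). Of the 5 genes in no class, Dnajc4 had 5.83, 5.86 and 5.60 in the knockdown, 5.29, 5.61 and 5.60 in the knockout and 5.26, 5.58 and 5.60 in wild type, a change of 0.28 (SE 0.14, limma adjusted p 0.983) for knockdown against wild type.

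Among the remaining members named by the size of p, none separated a pair of groups, and no limma adjusted p was under 0.983 in the comparisons given for them. Dnajb2, a J-protein that binds ubiquitin, had 4.44, 4.49 and 4.29 in the knockdown, 4.29, 4.26 and 4.29 in the knockout and 4.18, 4.17 and 4.30 in wild type, a change of 0.19 (SE 0.10) for knockdown against wild type. Hspa1l, an Hsp70 of the testis, had 2.79, 3.05 and 3.19 in the knockdown, 3.19, 2.81 and 2.55 in the knockout and 2.83, 2.58 and 2.81 in wild type, a change of 0.27 (SE 0.18) in the same comparison. Hspb6, a small heat shock protein known from muscle, had 4.45, 4.67 and 4.55 in the knockdown, 4.58, 4.58 and 4.70 in the knockout and 4.95, 4.58 and 4.54 in wild type. Its high array was wild type 1, as for Hsf1, Hsf4, Hsf5 and Hsfy2. Dnajc18 had 4.29, 4.15 and 4.33 in the knockdown, 4.49, 4.29 and 4.25 in the knockout and 4.28, 4.29 and 4.61 in wild type, so that 1 array of each group had the same value to 2 decimals. The changes for knockdown against wild type were -0.13 for both Hspb6 and Dnajc18.

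The mitochondrial J-proteins among them were lowest on wild type 1. Dnajc11, which is tied to the inner membrane folds, had 5.05, 4.99 and 5.06 in the knockdown, 5.06, 5.27 and 5.06 in the knockout and 4.75, 5.06 and 5.06 in wild type. Dnajc19, a J-protein of the inner membrane, had 3.67, 3.71 and 3.79 in the knockdown, 3.75, 3.69 and 3.67 in the knockout and 3.23, 3.66 and 3.76 in wild type. For knockout against wild type the change was 0.17 (SE 0.12) for Dnajc11 and 0.16 (SE 0.14) for Dnajc19. Dnajc17, a nuclear J-protein with an RNA recognition motif, had 4.73, 4.99 and 4.78 in the knockdown, 4.43, 4.72 and 4.73 in the knockout and 5.20, 4.60 and 4.93 in wild type, a change of -0.28 (SE 0.17) for knockout against wild type with wild type 1 as its high array. Hspa12b, a distant Hsp70 relative known from endothelium, had 2.86, 3.29 and 3.03 in the knockdown, 3.82, 2.95 and 3.03 in the knockout and 3.28, 3.01 and 3.03 in wild type, a change of -0.21 (SE 0.22) for knockdown against knockout. Its high value was that of knockout 7. Dnajc5b, a relative of the synaptic vesicle J-protein Dnajc5, had 2.82, 2.98 and 3.03 in the knockdown, 3.22, 2.79 and 3.21 in the knockout and 2.73, 3.41 and 3.16 in wild type, and a change of -0.13 (SE 0.19) for knockdown against knockout.

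Over all 66 genes the range across 9 arrays ran from 0.16 (Dnajb5) to 1.39, with a median of 0.75 against 0.64 over all genes, and 16 members (24.2%) had a range over 1 against 16.4% of all genes.

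The partners of these chaperones, taken as 4 lists, had 0 genes that passed in any comparison with all 9 arrays, and at an unadjusted p under 0.05 their counts stayed at 3 or fewer in either direction. Of 23 cytosolic Hsp70 and Hsp90 partners, 19 had a higher mean in the knockdown than in wild type (52.4% of all genes), 3 were higher (2.86%) and 1 lower (2.37%) at an unadjusted p under 0.05, and the median change was 0.15. Fkbp4, an Hsp90 cochaperone of steroid receptors, had a log2 change of 0.64 (SE 0.16, limma adjusted p 0.398) and Cryaa, a lens crystallin, one of -0.65 (limma adjusted p 0.555) in that comparison. In the fit without wild type 1 and knockout 7 the median of the 23 genes was -0.0011, and Cryaa passed with -0.88 (limma adjusted p 0.0321, in a range of 0.0315 to 1.0 over the alternatives). The 14 genes of the cytosolic chaperonin TRiC and of prefoldin had a median of 0.20 for knockdown against wild type, and -0.06 without those arrays. Pfdn1, a prefoldin subunit, had -0.40 for knockdown against wild type (limma adjusted p 0.851), and Pfdn2, another subunit, had 0.17 for knockdown against knockout (limma adjusted p 1.0). Of 21 genes of ER folding and the unfolded protein response, 16 had a lower mean in the knockout than in wild type (48.1% of all genes), with a median of -0.17, and the median was -0.07 for knockdown against wild type. Both medians were -0.19 without wild type 1 and knockout 7, and 8 of the 21 genes were lower in the knockdown than in wild type at an unadjusted p under 0.05 (7.37% of all genes), 0 of them after adjustment. Herpud1, an ER degradation factor, had -0.39 for knockdown against wild type (limma adjusted p 0.612), and Hyou1, the ER Hsp110 relative, had -0.30 for knockout against wild type (limma adjusted p 0.9997). The 8 mitochondrial folding genes had a median of 0.12 for knockdown against wild type, with Grpel1, an exchange factor for Hspa9, and its relative Grpel2 both at 0.31 (limma adjusted p 0.983), and of -0.04 without those arrays.

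Marker lists of other cells and the immediate early genes, which respond quickly to many stimuli, also had unequal means between knockdown and knockout. For knockdown against knockout, 14 of 19 immediate early genes had a higher mean (50.1% of all genes), 4 were higher at an unadjusted p under 0.05 (2.82%), and the median change was 0.13, with Egr2 at 0.58 (SE 0.15, limma adjusted p 0.418) and Fos at 0.72 (SE 0.23, limma adjusted p 0.671). The immediate early score was 0.02, 0.24 and -0.04 in the knockdown, -0.24, -0.15 and 0.08 in the knockout and 0.04, 0.08 and -0.11 in wild type. In the knockdown against the knockout, 14 of 15 measured thymocyte markers had a lower mean (49.8% of all genes), with a median of -0.49 and Rag1 at -1.14 (limma adjusted p 0.557). The thymocyte score was -0.22, -0.21 and -0.04 in the knockdown, -0.15, 0.70 and 0.46 in the knockout and -0.01, -0.29 and -0.07 in wild type, so the high arrays were knockout 8 and knockout 9. Of 19 dendritic cell and macrophage markers, 18 had a lower mean in the knockdown (49.8% of all genes), the median change against the knockout being -0.27, and Itgax stood at -0.71 (limma adjusted p 0.237). Of these markers 11 of 15 for thymocytes and 12 of 19 for dendritic cells and macrophages lay above the median gene mean. The thymocyte markers that did not were Cd3d, Zap70, Cd2 and Dntt, and Itgax was among several such dendritic cell and macrophage markers. Of 11 cortical epithelial and stromal markers, 10 had a lower mean in the knockdown (49.8% of all genes), and the median change against the knockout was -0.18. In this list 6 of 11 markers lay above the median gene mean. Named by p, Pdgfrb had -0.56 (limma adjusted p 0.463) for knockdown against knockout, Thy1 0.63 (limma adjusted p 0.9997) for knockout against wild type, and Ccr7 and Dll4 had -0.76 (limma adjusted p 0.555) and -0.37 (limma adjusted p 0.600) for knockdown against wild type. Without wild type 1 and knockout 7, the medians for knockdown against knockout were 0.11 for the immediate early genes, -0.75 for the thymocyte markers, of which 2 passed (0.337% of all genes), -0.45 for the dendritic cell and macrophage markers and -0.10 for the cortical and stromal markers. The part of these lists in the heat-inducible values was not tested.

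Genes with several probe sets show how far a value depends on the set. In the 8 such members, both sets of Hspb1 gave a change of 0.52 in knockdown against knockout, those of Hspe1 gave 0.08 and 0.13, and the 2 sets of Dnajc3 held identical values. The 5 sets of Dnajb6 ran from 0.11 to 0.27 in that comparison, and the 2 sets of Dnajb8 differed in sign, from -0.35 to 0.03 there and from -0.12 to 0.10 for knockout against wild type. The 2 sets of Hspd1 gave 0.07 and 0.36 for knockdown against knockout. The 3 sets of Hsp90aa1 ran from -0.08 to 0.14 for knockdown against wild type, and the 3 of Hspa8 from -0.25 to -0.04. The dimmest Hspa8 set was lowest on knockout 7 (8.98) and not on wild type 1 (9.52), unlike the set used. The Dnajb6 set used had a mean of 8.22 and the dimmest 4.82, and the lowest correlation between 2 Dnajb6 sets over the arrays was 0.25. Where each set lies in the genome was not checked, so the set of highest mean need not read the named gene alone. In the authors' deposited table the q-values of the members were 72.9% for Dnaja4, 81.7% for Dnajb1, 93.6% for Hspa2 and 99.4% for Dnaja1. The other 62 genes had q-values over 100 in the authors' deposited table, which does not state the groups compared.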

How the data were processed

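Expression was measured on 9 arrays, grouped by the sample titles. Total RNA was purified on columns and labelled with biotin, per the labels. The deposited log2 values come from RMA (named in the submitters' processing notes), which corrects background, normalizes between arrays and summarises probes by median polish; its version, the array annotation and any genome build of the files are not named there. The authors also deposited linear intensity values, whose log2 equals the values used. The authors' deposited q-value (a score in percent, up to 114.1) was only described. Probe set symbols were updated through RefSeq (assembly GRCm38.p6), which named 66 of the 79 member probe sets by accession and 13 by symbol.

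The probe set of highest mean stood for each gene, and no gene was removed for a low value. One limma 3.58.1 model (R 4.3.3, lmFit and eBayes, 6 residual degrees of freedom) over all 9 arrays gave the 3 contrasts. P-values are two-sided, with Benjamini-Hochberg adjustment over 19593 genes and a threshold of 0.05. The fit was tested on simulated data. Members, classes and lists were chosen with earlier results of these data known.

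Values on every array are given for inducible members, Hspa8, Hsp90ab1, Hspa4, Hspa9, Hsf1, Hsf2 and members among the 5 smallest p-values per direction of a comparison. Other named genes came from the 6 largest ranges in other classes, or from the genes of a list that passed or had its 2 smallest p-values. Hsph1, Dnajc6, Dnajb5, Dnajb6, Dnajb8, Hsf4, Hsf5 and Hsfy2 were named outside this rule after their values were seen. Alternatives were a repeated quantile normalization, centring, a filter on dim genes, an intensity trend with robust fitting, only the compared groups, other probe set choices, the interquartile range as a covariate, leaving out each array, and leaving out wild type 1 with knockout 7. Precision is limited by the 3 arrays per group.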

Additional observations from a re-analysis of the deposited data

How the results depend on the processing

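The number of heat shock and DnaJ genes past the adjusted threshold of limma was 0 in each comparison under all 18 alternative settings. The medians of the inducible and constitutive classes moved by less than 1 SD of the array scores, an SD that includes the arrays left out, yet the ER stress-inducible median of knockdown against wild type ran from -0.42 to 0.11 and all 3 constitutive medians changed sign. The count at an unadjusted p under 0.05 depended on the setting, the share of all genes is in brackets, and the cause was not tested. For knockdown against wild type it was 1 with all arrays (5.24%), 2 after a repeated quantile normalization (7.45%), 0 after centring (4.7%), after the filter on dim genes (6.82%), with an intensity trend and robust fitting (5.06%), with only the compared groups (4.59%) or over all probe sets (4.48%), 8 with the interquartile range as a covariate (11.2%), 9 without wild type 1 and knockout 7 (11.9%), and 0 to 6 when 1 array was left out, the 6 being without wild type 1 (8.44%). For knockout against wild type it was 0 with all arrays (3.34%), 4 after quantile normalization (5.44%), 11 with the covariate (9.51%), 9 without those arrays (7.69%), and 0 to 9 when 1 array was left out, the 9 being without wild type 1 (6.8%). For knockdown against knockout it was 5 with all arrays (5.04%), 8 after quantile normalization (6.75%), 3 after centring (4.52%) and 9 with the covariate (11.2%). In the same comparison it was 4 without wild type 1 and knockout 7 (11.5%). It was 0 to 8 when 1 array was left out (3.51% of all genes for the 0 and 8.18% for the 8). Heat-inducible genes without overlap between knockdown and knockout numbered 5 to 8 when 1 knockdown or knockout array was left out, a count chosen after seeing the data. In all of them the knockdown lay higher, as did 8.45% to 11.2% of all genes in these settings.

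Some named changes turned sign. Without wild type 1 and knockout 7 the change was -0.0098 for Grpel2 (knockdown against wild type), -0.027 for Dnajc19 and -0.10 for Dnajc7 (both knockout against wild type) and 0.068 for Hspa12b (knockdown against knockout). With 1 array left out, the changes ran from -0.0098 to 0.48 for Grpel2 and from -0.62 to 0.0074 for Hsp90b1 in knockdown against wild type. In knockout against wild type they ran from -0.0047 to 0.26 for Dnajc19, -0.14 to 0.50 for Dnajc7, -0.027 to 0.47 for Dnajc8 and -0.32 to 0.011 for Hsph1. In knockdown against knockout they ran from -0.37 to 0.068 for Hspa12b, -0.044 to 0.24 for Hspd1 and -0.094 to 0.33 for Hspe1. Of 1144 values of named genes under the alternatives, 1121 kept their direction and their side of the threshold. No paired analysis was possible because the groups share no replicate numbers.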
